A study of Mus musculus with 12 samples.

Results

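The CD300 receptors of mouse myeloid cells were examined in microglia and in macrophages of the central nervous system (CNS) that carried or lacked Tgfbr2, which encodes a receptor subunit for TGF-beta. The 7 members, Cd300a, Cd300lf, Cd300lb, Cd300c2, Cd300ld, Cd300e and Cd300ld2, were chosen by family name from the 25904 genes of the table, with their levels in these 12 libraries known. Their levels and differences below are therefore a description. Where a member is said to pass the threshold of the fit over all genes, this places it beside the share of all genes that pass and is no test of the member. Another 4 Cd300 genes of the table, Cd300ld3, Cd300ld4, Cd300c and Cd300lg, are not members and are given for comparison.

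Each of the 4 groups had 3 libraries of total RNA from C57BL/6 mice, each from a pool of 1 to 5 mice; the labels give no age. WT microglia came from Tgfbr2fl/fl mice, and KO microglia from Cx3cr1CreER/+Tgfbr2fl/fl mice, in which tamoxifen-activated Cre removes Tgfbr2 from cells that use the Cx3cr1 promoter. Both received 3 daily injections of 5 mg tamoxifen, and cells of brain and spinal cord were sorted 18 to 22 days later. Macrophages came from irradiated Cx3cr1CreER/+R26DTA/+ hosts, which carried bone marrow of the WT or the KO genotype and received the same tamoxifen course 6 weeks after transplantation, so that Cre-driven diphtheria toxin removed the host's microglia and monocyte-derived cells refilled the tissue. KO donor cells carry the CreER allele at Cx3cr1 and WT donor cells do not, and all macrophage hosts were irradiated while the microglia donors were not. All cells were live, Ly6C-negative and CD11b-positive, but WT cells were taken from the F4/80-low gate and KO cells from the F4/80-high gate, so genotype and gate cannot be told apart. No marker of donor origin is named for the macrophage sort.

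CD300 molecules are single-pass membrane proteins of the immunoglobulin superfamily on myeloid cells. Inhibitory members carry tyrosine motifs in a long cytoplasmic tail that recruit phosphatases. Activating members have a short tail and a charged residue in the membrane that pairs with an adaptor, DAP12 (gene Tyrobp) or the Fc receptor gamma chain (gene Fcer1g), which signals through the kinase Syk. Several of the extracellular domains bind lipids exposed on dying cells, such as phosphatidylserine. Levels are normalized counts, that is, reads per gene divided by the library's size factor. Values per kb are divided by the exon length of the gene and are used where genes are compared with each other. Differences are on the log2(normalized count + 1) scale, with the standard error (SE) and 95% interval of a limma fit over all tested genes.

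Of the 12 Cd300 genes of the annotation, 11 lie in a single cluster of 244 kb on chromosome 11 (GRCm38, chr11:114890041-115133992). Cd300a stands at the proximal end on the plus strand, and the other 10 are on the minus strand, ending with Cd300lf. Cd300lg lies apart, at chr11:102041509-102055620. Promoter sequence was held by the RefSeq table (GRCm38.p6) for 10 of the 12 genes, 6 of them members; Cd300ld2 and Cd300lg had no entry. The sequences printed here are upstream of the start sites, on the coding strand, for Cd300ld with 2 close relatives that were near 0 in WT microglia and high in both KO groups, for Cd300c2, which was the only tested member lower in KO microglia, and for Cd300lf, which differed mainly by cell origin. Capitals mark matches on either strand to GAGGAA (opposite strand TTCCTC), the core bound by PU.1 and related ETS factors, to CAGAC (opposite strand GTCTG), a Smad-binding core, or to GAAANNGAA, an interferon regulatory factor element.
Cd300ld (chr11:114989923-114990136, minus strand): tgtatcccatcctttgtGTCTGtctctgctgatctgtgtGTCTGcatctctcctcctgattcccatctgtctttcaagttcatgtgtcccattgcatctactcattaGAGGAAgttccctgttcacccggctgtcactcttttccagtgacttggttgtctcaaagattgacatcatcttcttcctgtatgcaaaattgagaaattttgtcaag
Cd300ld3 (chr11:115048410-115048580, minus strand): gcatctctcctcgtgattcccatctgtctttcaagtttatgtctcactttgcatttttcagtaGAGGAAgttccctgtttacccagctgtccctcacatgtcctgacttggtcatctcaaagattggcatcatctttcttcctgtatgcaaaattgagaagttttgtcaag
Cd300ld4 (chr11:115027013-115027183, minus strand): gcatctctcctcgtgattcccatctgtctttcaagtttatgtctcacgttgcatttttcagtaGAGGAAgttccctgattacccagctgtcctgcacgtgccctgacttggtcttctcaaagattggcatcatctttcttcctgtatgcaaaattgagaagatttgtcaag
Cd300c2 (chr11:115001881-115002130, minus strand): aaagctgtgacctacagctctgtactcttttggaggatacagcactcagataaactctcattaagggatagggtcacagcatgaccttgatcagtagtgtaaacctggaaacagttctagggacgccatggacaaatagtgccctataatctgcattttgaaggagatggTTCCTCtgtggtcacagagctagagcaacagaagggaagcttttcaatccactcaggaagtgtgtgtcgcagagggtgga
Cd300lf (chr11:115133993-115134242, minus strand): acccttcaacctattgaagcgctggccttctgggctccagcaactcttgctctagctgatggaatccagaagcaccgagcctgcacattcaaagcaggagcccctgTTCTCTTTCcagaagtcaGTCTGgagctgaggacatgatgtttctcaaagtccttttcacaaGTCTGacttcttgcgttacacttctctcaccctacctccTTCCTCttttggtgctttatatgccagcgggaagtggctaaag

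Over 250 bases upstream of the start site, Cd300ld3 and Cd300ld4 were 94.8% identical. Cd300ld matched Cd300ld3 at 88.1% of 210 aligned positions and Cd300ld4 at 86.7% of 211. GAGGAA stood in the window of Cd300ld, Cd300ld3, Cd300ld4, Cd300ld5, Cd300c2, Cd300a and Cd300lf, and not in those of Cd300lb, Cd300e or Cd300c. It also stood in 23.3% of the 32851 promoters of the table. The windows of Cd300ld4 and Cd300ld5 were 100% identical, so matches in Cd300ld and its close relatives are not separate observations. CAGAC was found at 2 places in Cd300ld, 2 in Cd300lf, 1 in Cd300a and 1 in Cd300lb, against 42.2% of all promoters with at least 1 match. The interferon element was found in Cd300lf and Cd300c, against 7.13% of all promoters, and the AP-1 element TGANTCA in none of the 10, against 6.75%. These matches are descriptions of letters, and the genes that share GAGGAA include Cd300c2, which was lower in KO microglia, and Cd300ld, which was higher.

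Sequencing depth ran from 2615404 to 6364994 reads in genes per library, and 1 read was worth 0.718 to 1.6 normalized counts. In KO microglia Tgfbr2 was at 2078 to 2256 normalized counts against 2495 to 3172 in WT microglia, and in KO macrophages at 2068 to 2469 against 2997 to 3486. The count covers the whole gene, including parts outside the deleted stretch, so it is a weak check of the deletion. KO macrophage replicate 1 had the fewest reads and a mean correlation with its group of 0.936, against 0.958 for each of its 2 partners. The Y-linked gene Ddx3y was at 470 to 508 in all 3 KO microglia libraries and high in 1 of 3 libraries of each other group, so the pools differed in sex. Bulk libraries cannot tell more cells of a type from more RNA per cell.

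Among the 6 members with enough reads for the fit, 4 were higher and 1 was lower in KO than in WT microglia at an adjusted p under 0.05 (limma), where 21.9% of all tested genes were higher and 20.6% lower. In macrophages 4 were higher in KO than in WT and none was lower, where 16% of genes were higher and 15.4% lower. Between the cell origins, 2 members were higher and 1 was lower in WT macrophages than in WT microglia (all genes 19.2% and 20.2%), and 2 were higher and none lower in KO macrophages than in KO microglia (5.45% and 5.05%), a count of 2 that was 4 or 5 in 3 of the alternative fits. The median log2 difference of the 6 was 2.04 for KO against WT microglia and 3.06 for KO against WT macrophages, beside -0.01 and 0.00 over all tested genes. For WT and KO macrophages against microglia of the same genotype the medians were 0.15 and 0.17, beside 0.00 and 0.00. Because the members were proposed with these values known, and the comparisons share libraries, nothing is read from these counts. Cd300e did not pass the filter of 10 normalized counts in 3 libraries and is in none of them.

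**Figure D1:**
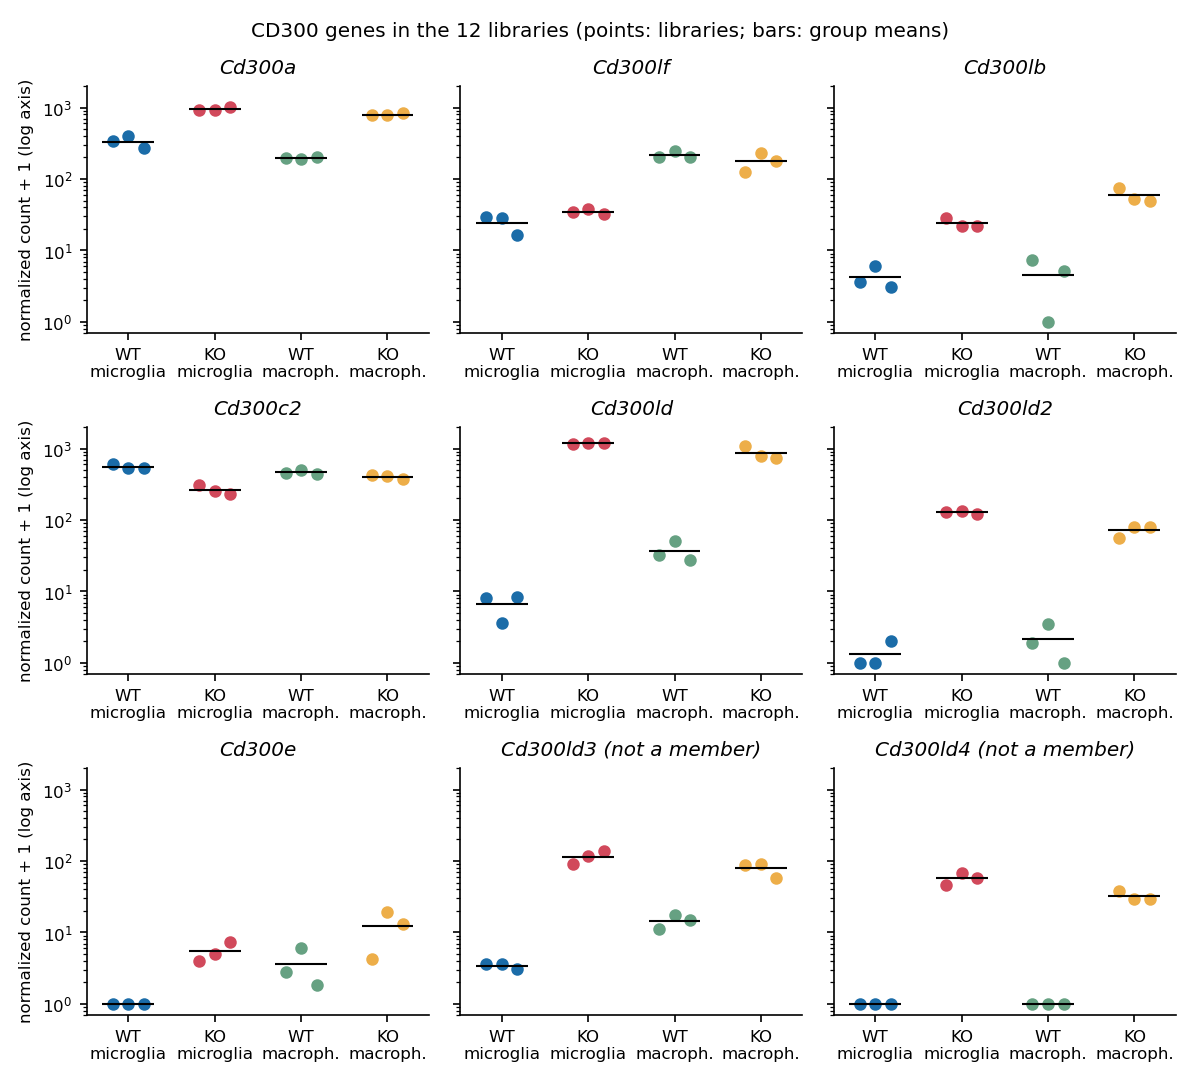
Normalized count plus 1 on a log axis for the 7 members and for Cd300ld3 and Cd300ld4 in the 12 libraries; points are libraries and bars are means of 3. Cd300ld lies between 2.58 and 7.24 in WT microglia and between 1151 and 1196 in KO microglia, while Cd300c2 is lower in KO than in WT microglia and Cd300lf separates macrophages from microglia.

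Cd300a encodes an inhibitory receptor that binds phosphatidylserine and phosphatidylethanolamine. WT microglia held 335, 396 and 268 normalized counts and KO microglia 933, 921 and 1031. WT macrophages had the lowest levels, 198, 189 and 205, and KO macrophages had 775, 790 and 828. No 2 groups overlapped, and KO stood above WT in both cell types. The log2 difference was 1.54 ± 0.11 (SE, interval 1.30 to 1.79) in microglia and 2.01 ± 0.11 (1.76 to 2.25) in macrophages. WT macrophages were below WT microglia by a log2 difference of -0.73 ± 0.11, and KO macrophages were below KO microglia by -0.27 ± 0.11 (-0.51 to -0.02).

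Cd300lf is the second inhibitory member, a receptor for ceramide and phosphatidylserine. Its level followed cell origin: WT microglia had 28.2, 27.1 and 15.5 normalized counts and KO microglia 33.4, 37.4 and 31.3, whereas WT macrophages had 203, 247 and 204 and KO macrophages 125, 230 and 180. Macrophages were higher than microglia by 3.19 ± 0.24 on the log2 scale in WT cells and by 2.32 ± 0.24 in KO cells. The genotypes lay closer together, with 0.55 ± 0.24 (0.04 to 1.07) in microglia and -0.32 ± 0.24 (-0.84 to 0.19) in macrophages, where the 2 genotypes overlapped. KO macrophage replicate 1 held the lowest of the macrophage values, and without it the macrophage difference was -0.09. Cd300lf lies within Rab37 on the opposite strand, and Rab37 averaged only 0.578 to 2.72 normalized counts in the 4 groups.

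Cd300lb, an activating member that pairs with DAP12, was scarce in WT cells. WT microglia had 2.64, 5.15 and 2.07 normalized counts, and WT macrophages 6.37, 0 and 4.12. KO microglia had 27.5, 20.6 and 20.9, and KO macrophages 73.6, 51.5 and 48.8, so every KO library was above every WT library. The log2 difference was 2.54 ± 0.58 (1.29 to 3.79) in microglia and 4.11 ± 0.58 (2.86 to 5.36) in macrophages. KO macrophages lay above KO microglia without overlap, by 1.28 ± 0.58 (0.04 to 2.53). The WT groups rest on 9 reads in microglia and 12 in macrophages, and the ratio of their read counts, 1.24 (0.478 to 3.32, counting error only), covers 1.

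Cd300c2, an activating member that also pairs with DAP12, had the highest level per kb of the 7 in WT cells. WT microglia had 604, 528 and 541 normalized counts, KO microglia 312, 257 and 229, WT macrophages 449, 499 and 435, and KO macrophages 427, 407 and 376. KO microglia were the lowest group, with no overlap with any other. The log2 difference between KO and WT was -1.07 ± 0.11 (-1.31 to -0.84) in microglia and -0.19 ± 0.11 (-0.43 to 0.05) in macrophages. KO macrophages were above KO microglia by 0.61 ± 0.11 (0.37 to 0.85), while WT macrophages were below WT microglia by -0.27 ± 0.11 (-0.51 to -0.04).

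Cd300ld, an activating member that pairs with the Fc receptor gamma chain, had the largest log2 difference between genotypes among the 6 fitted members, in microglia. WT microglia had 7.05, 2.58 and 7.24 normalized counts, from 17 reads in all, and KO microglia 1151, 1196 and 1191. WT macrophages had 30.9, 49.6 and 26.3, and KO macrophages 1088, 777 and 742. The log2 difference was 7.57 ± 0.29 (6.96 to 8.18) in microglia and 4.60 ± 0.29 (3.99 to 5.21) in macrophages. WT macrophages were above WT microglia by 2.51 ± 0.29 (1.90 to 3.12), and the KO groups did not overlap but lay within -0.46 ± 0.29 (-1.07 to 0.15) of each other. Without KO macrophage replicate 1, the highest of its group, the macrophage difference was 4.43. In the Ddx3y-high microglia libraries alone, Cd300ld was at 7.24 in the 1 WT library and at 1151 to 1196 in the 3 KO libraries. Its first rank holds on the log2(normalized count + 1) scale and not by read ratio. That ratio was 200 (125 to 343) for Cd300ld in microglia and 368 (65.6 to 14554) for Cd300ld2, counting error only.

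Cd300ld2 was close to absent from WT cells, with 0, 0 and 1.03 normalized counts in microglia (1 read) and 0.91, 2.54 and 0 in macrophages (3 reads). KO microglia had 129, 135 and 121, and KO macrophages 54.4, 78.5 and 78.3. The ratio of reads between KO and WT was 368 in microglia and 76.1 in macrophages. The counting intervals were 65.6 to 14554 and 25.7 to 372. KO macrophages lay below KO microglia without overlap (log2 difference -0.87 ± 0.45, -1.84 to 0.09). Of the 50-base windows of Cd300ld2 transcripts, 31.0% also occur in Cd300ld3, Cd300ld4 or Cd300ld5, so part of its count may depend on how shared reads were assigned, which is not given in the sources used here.

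Cd300e, an activating member that pairs with DAP12, stayed near the limit of these libraries. No read was counted in the 3 WT microglia libraries. KO microglia had 2.95, 3.93 and 6.43 normalized counts (15 reads), WT macrophages 1.82, 5.08 and 0.82 (7 reads), and KO macrophages 3.20, 18.3 and 12.2 (40 reads). Against a floor of 3 reads over the WT group, KO microglia were at least 4.39-fold higher. In macrophages the read ratio of KO to WT was 5.60 (2.48 to 14.8, counting error only), but the 2 groups overlapped, since KO macrophage replicate 1 held 2 reads.

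**Figure D2:**
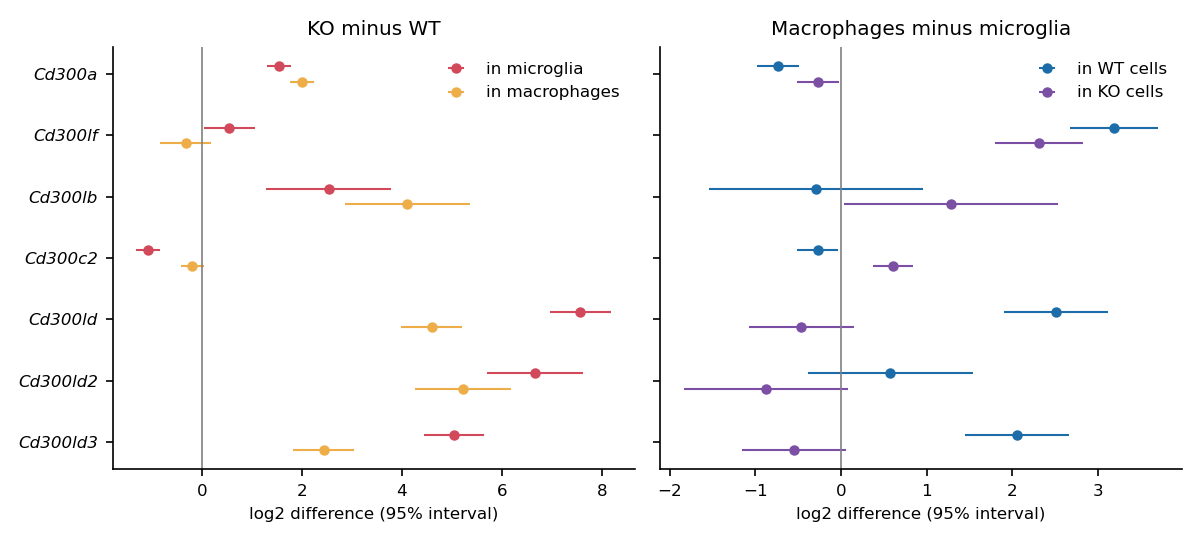
Log2 differences with 95% intervals from the limma fit, between genotypes (left) and between cell origins (right), for the 6 members in the fit and for Cd300ld3. The genotype intervals of Cd300a, Cd300lb, Cd300ld and Cd300ld2 lie above 0 in both cell types, that of Cd300c2 lies below 0 in microglia, and Cd300lf stands out on the right with 3.19 and 2.32.

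The 2 genotype differences of each member can be set against each other. As a description, the difference of the KO effects, macrophages minus microglia, passed the threshold upwards for 2 members and downwards for 1, where 13% of all tested genes passed upwards and 12.9% downwards. For Cd300c2 it was 0.88 ± 0.16 (0.55 to 1.22), from a difference of -1.07 in microglia and -0.19 in macrophages. For Cd300ld it was -2.97 ± 0.40 (-3.84 to -2.11), and the KO groups were the closer pair there while the WT groups differed 6.33-fold. For Cd300a it was 0.46 ± 0.16 (0.12 to 0.81), and it was 0.36 with log2 Ddx3y as a covariate, where it no longer passed the threshold. The intervals were wide for Cd300lb (-0.19 to 3.34), Cd300ld2 (-2.81 to -0.09) and Cd300lf (-1.60 to -0.15), and these 3 did not pass. The median of the 6 was -0.21, beside 0.00 over all tested genes.

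The nearest relatives of Cd300ld in the cluster gave values of the same kind. For Cd300ld3, WT microglia held 2.64, 2.58 and 2.07 normalized counts and KO microglia 89.4, 115 and 136, while WT macrophages held 10.0, 16.5 and 14.0 and KO macrophages 86.4, 90.7 and 56.0. It rose in KO microglia by 5.04 ± 0.28 (adjusted p = 1.02e-09, limma) and in KO macrophages by 2.43 ± 0.28 (adjusted p = 1.12e-05, limma), higher in 3 of 3 KO libraries each time. Its KO effects differed between the cell types by -2.61 ± 0.40 (adjusted p = 0.000202, limma). Cd300ld4 had no read in any of the 6 WT libraries, 45.2, 67.8 and 56.3 normalized counts in KO microglia and 36.8, 28.8 and 28.7 in KO macrophages. Against the floor of 3 reads over the WT group it was at least 54.1-fold higher in KO microglia and at least 31.4-fold higher in KO macrophages. Cd300ld4 passed the filter only through the KO libraries, so these values are a description and no p-value is given. These 2 genes are uncertain as separate units, because 82.1% of the 50-base windows of Cd300ld3 and 93.8% of those of Cd300ld4 occur in another gene, mostly in each other and in Cd300ld5, which was not analysed here. For Cd300ld itself the share was 3.89%, for Cd300c2 7.16% and for Cd300lb and Cd300e 0%. Cd300c held at most 3 reads in any group and Cd300lg at most 9.

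Per kb of exon, the order of the members differed between the groups. In WT microglia Cd300c2 led with 437 ± 31.6 (SD, n = 3), followed by Cd300a with 70.2 ± 13.5 and Cd300lf with 4.58 ± 1.36. The remaining 4, Cd300ld, Cd300lb, Cd300ld2 and Cd300e, were at 2.13 or less, and their spreads ran into each other down to Cd300ld2. In WT macrophages Cd300c2 led with 362 ± 26.5, and Cd300lf with 42.3 ± 4.82 and Cd300a with 41.7 ± 1.65 did not differ beyond their spread. Cd300ld followed with 13.5 ± 4.65, and Cd300ld2, Cd300e and Cd300lb were all near 1.2.

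In the KO groups Cd300ld stood at the top. KO microglia had 446 ± 9.31 per kb for Cd300ld, then 209 ± 33.2 for Cd300c2 and 203 ± 12.8 for Cd300a, which lay within their spread of each other, and 140 ± 7.27 for Cd300ld2. Cd300lb with 7.89 ± 1.33 and Cd300lf with 6.61 ± 0.594 were neighbours whose difference was also within the spread, and Cd300e came last with 2.12 ± 0.860. In KO macrophages Cd300ld with 329 ± 72.2 and Cd300c2 with 317 ± 20.2 could not be ordered, followed by Cd300a with 168 ± 5.81, Cd300ld2 with 76.7 ± 15.1, Cd300lf with 34.7 ± 10.3, Cd300lb with 19.9 ± 4.67 and Cd300e with 5.39 ± 3.64.

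Summed over the 7 members, WT microglia had a level of 516 ± 33.4 per kb and WT macrophages one of 463 ± 35.8. The sum was 1014 ± 19.3 for KO microglia and 950 ± 64.7 for KO macrophages. Cd300c2 made up 84.8 ± 2.57% of this sum in WT microglia and 20.5 ± 2.87% in KO microglia, and 78.2 ± 0.317% and 33.3 ± 0.689% in WT and KO macrophages. Cd300ld went the other way, with 0.412 ± 0.194% and 44.0 ± 1.69% in microglia and 2.87 ± 0.755% and 34.4 ± 5.17% in macrophages. Per kb, the 4 activating members Cd300lb, Cd300c2, Cd300ld and Cd300e together exceeded the 2 inhibitory ones, Cd300a and Cd300lf. The excess was 6.05 ± 1.26-fold in WT and 3.18 ± 0.282-fold in KO microglia, and 4.49 ± 0.220-fold in WT and 3.33 ± 0.687-fold in KO macrophages. These ratios rest on division by exon length, which is 4738 bases for Cd300a, 5149 for Cd300lf and 1275 for Cd300c2. Without this division the excess was smaller in every group, and in macrophages it was lower in WT than in KO cells. Cd300ld2 was counted in neither kind. It averaged 140 and 76.7 per kb in KO microglia and KO macrophages, against 0.376 and 1.25 in the WT groups, so leaving it out touches mainly the KO ratios. The inhibitory and the activating sum were both higher in the KO groups. The inhibitory pair was at 74.8 ± 14.6 and 210 ± 12.3 per kb in WT and KO microglia and the 4 activating members at 441 ± 32.0 and 664 ± 25.4. Most of the activating level was Cd300c2 in WT microglia and Cd300ld in KO microglia.

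**Figure D3:**
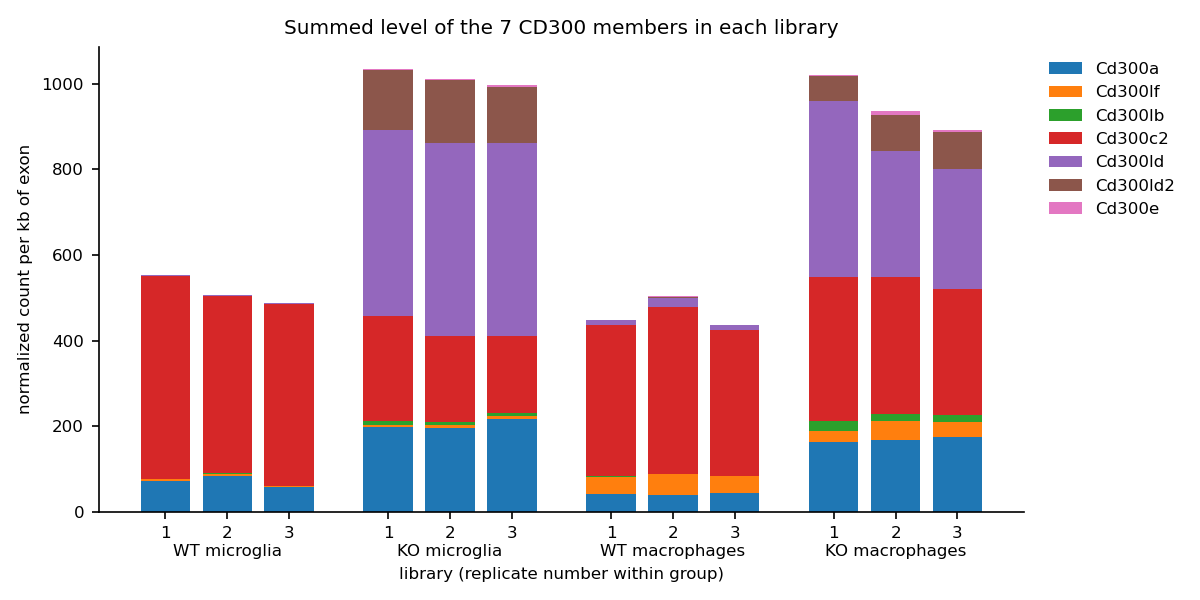
Normalized counts per kb of exon of the 7 members, stacked for each of the 12 libraries. The WT bars consist mostly of Cd300c2 (84.8% in microglia and 78.2% in macrophages on average), while the KO bars reach 893 to 1034 per kb and hold a large Cd300ld block (44.0% and 34.4%).

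**Figure D4:**
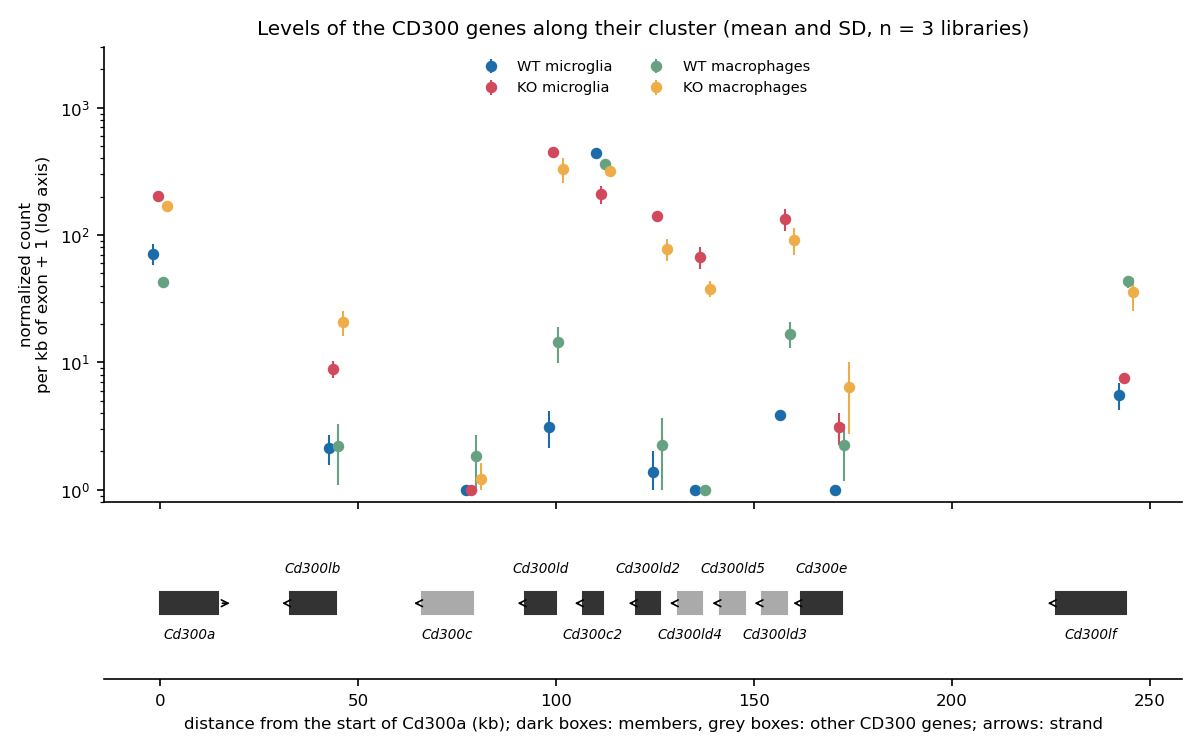
Upper panel, mean level per kb plus 1 with SD (n = 3 libraries, log axis) of the listed CD300 genes of the cluster at their start sites, groups set side by side; lower panel, the genes to scale with arrows for strand, by distance from the start of Cd300a in kb. Cd300c2 stands within a run of genes (Cd300ld, Cd300ld2, Cd300ld4 and Cd300ld3) that are low in WT cells but not in KO cells, and is itself lower in KO than in WT microglia.

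Along the cluster, genes of opposite behaviour lay side by side. Cd300c2 starts 112 kb from Cd300a, between Cd300ld at 99.9 kb and Cd300ld2 at 126 kb, and it was lower in KO microglia while both of those were higher. Cd300c, at 79.1 kb, stayed near 0 in all groups between Cd300lb and Cd300ld. The 500 kb on each side of the cluster hold 44 annotated genes other than CD300 genes, of which 35 are listed and 21 were tested. Of the 21, 7 rose and 1 fell in KO microglia, where 21.9% of all tested genes rose and 20.6% fell. In KO macrophages 8 rose and none fell, where 16% of all tested genes rose and 15.4% fell. The median log2 differences were 0.19 and 0.29. The counts were not tested against these shares. Gprc5c, an orphan G protein-coupled receptor gene that ends upstream of Cd300a on the same strand (chr11:114851152-114872617), averaged 0.294 ± 0.509 normalized counts in WT microglia, from 1 read, and 222 ± 50.1 in KO microglia. Its read ratio was 647 (116 to 25573, counting error only). With 1 read in the WT group, this is a description and no p-value is given. Ttyh2, a chloride channel family gene further out, rose by 1.50 ± 0.19 in KO microglia (adjusted p = 1.24e-05, limma) and by 1.88 ± 0.19 in KO macrophages (adjusted p = 3.28e-06, limma). On the Cd300lf side Slc9a3r1, a scaffold protein gene, rose by 0.73 ± 0.13 in KO macrophages (adjusted p = 0.000585, limma).

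The adaptors that the activating members need were present in all groups. Tyrobp, Fcer1g, Hcst, Ptpn6 and Ptpn11 were named after their values were seen, as adaptors and phosphatases of such receptors. Syk, the kinase through which the adaptors signal, was named in the same way. Tyrobp, the DAP12 partner of Cd300lb, Cd300c2 and Cd300e, averaged 1035 ± 78.8 normalized counts in WT and 1006 ± 52.5 in KO microglia, a log2 difference of -0.04 ± 0.13 (-0.32 to 0.24). In macrophages it rose from 725 ± 9.32 to 1069 ± 276 (0.53 ± 0.13, adjusted p = 0.00637, limma), and without KO macrophage replicate 1 the difference was 0.33. Fcer1g, the partner of Cd300ld, rose from 1012 ± 34.4 to 1712 ± 11.4 in microglia (0.76 ± 0.10, adjusted p = 1.44e-05, limma) and from 873 ± 58.6 to 1491 ± 250 in macrophages (0.76 ± 0.10, adjusted p = 3.37e-05, limma). Syk rose by 0.59 ± 0.09 and 0.72 ± 0.09 in microglia and macrophages (adjusted p = 4.99e-05 and 1.59e-05, limma). Hcst, the DAP10 adaptor, was at 11.6 ± 2.31 in WT and 15.9 ± 3.49 in KO microglia, and at 11.3 ± 3.96 in WT and 28.9 ± 13.4 in KO macrophages (1.24 ± 0.38, adjusted p = 0.0224, limma). That call was lost when KO macrophage replicate 1 (then 0.90) or 2, or WT macrophage replicate 2 or 3, was left out, with limma voom and with only the compared groups in the fit.

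A gene of these lists is named for the comparison in which the naming rule picked it, and may also have passed in another. The list counts stand beside the shares of all tested genes and were not tested against them. Of 16 activating adaptors and kinases, 4 rose and 9 fell in KO microglia (all genes 21.9% and 20.6%). In KO macrophages 7 rose and 6 fell (all genes 16% and 15.4%). The median log2 differences were -0.36 and 0.11. Vav3, a guanine nucleotide exchange factor downstream of Syk, rose in KO microglia, from 1.84 ± 0.87 to 1116 ± 48.6 normalized counts, and also in KO macrophages, from 106 ± 4.82 to 829 ± 87.6 (adjusted p = 2.04e-14 and 2.11e-08, limma). Fyn, a Src family kinase, rose by 2.03 ± 0.19 and 2.82 ± 0.19 (adjusted p = 4.57e-07 and 4.84e-08, limma). Between the KO groups, Fgr and Lat2 were higher in macrophages, by 1.82 ± 0.31 and 1.05 ± 0.11 (adjusted p = 0.00088 and 8.45e-06, limma). There 6 of the 16 were higher and none lower (all genes 5.45% and 5.05%). Between the WT groups 2 were higher and 6 lower in macrophages (all genes 19.2% and 20.2%). Lat2 itself was lower in KO than in WT cells, by -1.73 ± 0.11 in microglia and -0.75 ± 0.11 in macrophages (adjusted p = 2.8e-09 and 7.96e-05, limma).

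The 12 inhibitory effectors are enzymes and adaptors that act behind receptors such as Cd300a and Cd300lf. Of them, 4 rose and 2 fell in KO microglia (all genes 21.9% and 20.6%). In KO macrophages 3 rose and 1 fell (all genes 16% and 15.4%). The median differences of the 12 were 0.05 and 0.10. Ptpn6, which encodes the phosphatase SHP-1 that inhibitory CD300 tails recruit, averaged 1706 ± 125 in WT and 1475 ± 99.9 in KO microglia, a difference of -0.21 ± 0.10 that did not pass, and rose by 0.30 ± 0.10 in KO macrophages (adjusted p = 0.0277, limma). The Ptpn6 call in macrophages was lost without WT macrophage replicate 1 or 3 or KO macrophage replicate 1, with scaling to library totals (0.23) and with only the compared groups in the fit. Ptpn11, for SHP-2, differed by 0.22 ± 0.12 and -0.24 ± 0.12 and passed in neither. Dok2, a docking protein that restrains Ras signalling, was higher by 5.29 ± 0.28 and 3.80 ± 0.28. It passed the filter only through the KO libraries, so this is a description and no p-value is given. Ptpn22, a phosphatase of Src family kinases, rose by 3.09 ± 0.15 in KO microglia (adjusted p = 2.35e-10, limma). Inpp5d, for the lipid phosphatase SHIP1, fell in both cell types, with log2 differences of -1.67 ± 0.09 in KO microglia (adjusted p = 1.07e-09, limma) and -1.07 ± 0.09 in KO macrophages (adjusted p = 6.91e-07, limma). Dok3, another docking protein, was higher in macrophages than in microglia in WT cells (1.13 ± 0.16, adjusted p = 3.5e-05, limma) and in KO cells (1.24 ± 0.16, adjusted p = 6.58e-05, limma).

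Other paired receptor families were read from a list of 34 genes, of which 31 are listed and 27 were tested. In KO microglia 12 rose and 10 fell (all genes 21.9% and 20.6%), with a median of 0.98. In KO macrophages 13 rose and 7 fell (all genes 16% and 15.4%), with a median of 0.43. The activating receptors Pilrb1 and Pilrb2 were near 0 in WT microglia (2 and 3 reads) and at 160 ± 15.0 and 119 ± 4.71 in KO microglia, as Cd300ld2 was. Their read ratios were 231 (63.7 to 1914) and 113 (38.5 to 553), counting error only. In KO macrophages the 2 were higher by 5.07 ± 0.42 and 5.43 ± 0.37. Both passed the filter only through the KO libraries, so these values are a description and no p-value is given. Clec12a, an inhibitory lectin, and Siglec1, a sialic acid receptor, were higher in WT macrophages than in WT microglia, by 7.92 ± 0.55 and 6.35 ± 0.14 (adjusted p = 2.13e-08 and 3.94e-14, limma). Cd300lf was also higher there. In KO microglia Clec12a and Siglec1 rose by 5.75 ± 0.55 and 5.77 ± 0.14 (adjusted p = 4.6e-07 and 5.88e-14, limma). The difference of Cd300lf in KO microglia was smaller, 0.55 ± 0.24, and did not pass. Siglec1 rose in KO macrophages too, by 1.00 ± 0.14 (adjusted p = 5.81e-05, limma). Clec12a was higher in KO macrophages than in KO microglia by 2.54 ± 0.55 (adjusted p = 0.00643, limma, and 0.0657 with robust moderation). Treml4 was higher there by 3.62 ± 0.48, as a description, since its mean reached 10 normalized counts only in KO macrophages.

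Cd300a and Cd300lf share their lipid ligand with receptors of other families. Of 14 tested genes of that list (16 in all), 7 rose and 7 fell in KO microglia (all genes 21.9% and 20.6%). In KO macrophages 4 rose and 3 fell (all genes 16% and 15.4%). Axl, a receptor kinase for phosphatidylserine bridged by Gas6, rose from 117.5 ± 61.4 to 2537 ± 65.9 in KO microglia (adjusted p = 3.36e-10, limma), and the scavenger receptor Cd36 from 3.67 ± 2.71 to 108 ± 24.8 (adjusted p = 1.81e-08, limma). In KO macrophages the bridging ligand Gas6 rose by 1.95 ± 0.14 (adjusted p = 5.32e-08, limma). The scavenger receptor Stab2 was higher there by 5.30 ± 0.39, as a description, since it passed the filter only through the KO libraries. Itgb3, an integrin chain, was lower in WT macrophages than in WT microglia by -5.92 ± 0.38 (adjusted p = 1.06e-08, limma). Havcr2, which encodes the checkpoint receptor TIM-3, was higher in KO macrophages than in KO microglia by 1.76 ± 0.10 (adjusted p = 1.28e-08, limma). It was lower in KO than in WT cells of both types, by -4.00 ± 0.10 in microglia and -1.69 ± 0.10 in macrophages (adjusted p = 5.88e-14 and 7.76e-09, limma).

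The genes with the profile most like each member over the 12 libraries were found by Pearson's r of log2 values, as a description; the 12 points fall into 4 groups and share size factors. For Cd300a they were Clec4a3 (0.992), Lpl (0.987) and Tbc1d4 (0.985), all with about the same rank of groups. Cd300ld was closest to Mmp13 (0.993), Atp13a2 (0.993) and Sdc3 (0.992), and Mmp13 ran from 0.345 in WT to 1802 in KO microglia. Cd300ld2 was closest to Dok2 (0.991), Tsc22d1 (0.989) and Clec4a1 (0.989). Cd300c2 went with Camkk1 (0.984), Tgm2 (0.975) and Abi3 (0.970), and Abi3 fell from 2428 to 95.2 between WT and KO microglia, a far wider range than that of Cd300c2. Cd300lf went with Luzp1 (0.977), AI662270 (0.976) and Runx3 (0.969), and Cd300lb with Ksr2 (0.962), Per2 (0.960) and Pgghg (0.960). Among the members, Cd300ld and Cd300ld2 were the closest pair at 0.967, and Cd300c2 was negative with 4 of the other 5, from -0.82 to -0.57, and 0.09 with Cd300lf.

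Markers of other cell populations were summed in the same groups, and the lists differed in size and direction. The 7 border macrophage markers, all detected in each group, summed to 93.1 to 112 normalized counts for WT microglia and 19541 to 23927 for KO microglia, then to 6013 to 7254 for WT macrophages and 18299 to 18544 for KO macrophages, an order in which KO microglia stand above WT macrophages as they do for Cd300ld. Most of this sum was Mrc1, with group means of 87.6, 16082, 4356 and 12182 in that order. F13a1 and Clec10a were higher in KO macrophages (1433 and 1277) than in KO microglia (616 and 667), while Mrc1, Cd163 and Ms4a7 were lower. Pf4 and Lyve1 differed little between the KO groups. The 8 microglia markers, also all detected, summed to 53350 to 70894, 5052 to 5588, 18015 to 18874 and 5802 to 6585 in the same order of groups. The 5 listed of 6 monocyte markers summed to 41.4 to 54.1, 122 to 166, 170 to 218.5 and 166 to 353, and Ly6c2 was at 0 in all groups but KO macrophages (mean 0.821). The 5 dendritic cell markers summed to 27.3 to 29.0, 116.6 to 151, 42.8 to 56.8 and 91.2 to 120, most of it Zbtb46 in KO microglia (107). The 5 listed of 7 neutrophil markers summed to 2410 to 2574 in WT and 606 to 823 in KO microglia, and to 1102 to 1171 in WT and 568 to 632 in KO macrophages. Almost all of this was Csf3r, with group means of 2465, 699.5, 1128 and 594 in that order, while the other 4 averaged at most 4.86. The 2 listed mast cell and basophil markers summed to at most 6.87, and the T and NK cell markers to at most 14.4 in any library. The B cell sum, 9.05 to 61.9, was almost all Cd79b, with Cd79a at most 0.864. The part of any of these populations in the CD300 values was not tested.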

How the data were processed

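Total RNA of 12 sorted pools was made into stranded total RNA libraries with a kit for picogram input, per the labels' protocols. The submitters' processing notes name bcl2fastq, CASAVA, STAR and the build GRCm38; for the counter, strand use and shared reads, nothing is given in the sources used here. The deposited table holds log2 values per gene, made by the authors: log2 of the count divided by a size factor, plus 1. Whole reads could be read back from 100% of the 310848 values within 0.01 reads. Of 25904 gene identifiers, 25730 matched a symbol in GENCODE M21. Groups were taken from the sample titles; replicates are separate pools.

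The 12519 genes that reached 10 normalized counts in 3 or more libraries were fitted with limma 3.58.1 (R 4.3.3) on the deposited values, with 1 mean per group, 8 residual degrees of freedom and a mean-variance trend. P-values were adjusted by the Benjamini-Hochberg method over all tested genes, threshold 0.05. The members and gene lists were chosen with earlier results of these data known. Genes low in WT cells, such as Cd300ld4, Pilrb1, Pilrb2, Dok2 and Stab2, passed the filter only through the KO libraries. Their calls between KO and WT are therefore a description, and their p-values are not given. Genes named from a list were the called ones with the widest log2 difference in a comparison whose higher group averaged at least 100 normalized counts. The genes most like a member were the 3 with the highest Pearson's r, unnamed models and other Cd300 genes left out. Read ratios have exact 95% intervals for counting error only. The script was tested on simulated data. Alternatives were another filter or none, a pseudocount of 10, scaling to library totals, limma voom on the reads, robust moderation, a fit on the compared groups alone, Ddx3y as a covariate, each library left out, and shares without division by length.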

Additional observations from a re-analysis of the deposited data

Results flagged for a closer look

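The difference of the 2 KO effects (macrophages minus microglia, log2) passed the threshold of the fit over all genes for 3 members, with 0.46 for Cd300a, 0.88 for Cd300c2 and -2.97 for Cd300ld. The members were chosen with these values known, so for them this is a description, and the value of Cd300a lost its call under several alternatives. That of the relative Cd300ld3 was -2.61. Among the signalling genes the difference was -5.71 for Vav3, 0.79 for Fyn, -1.49 for Dok2, -2.75 for Ptpn22, 0.61 for Inpp5d, 0.57 for Tyrobp, 0.51 for Ptpn6 and -0.46 for Ptpn11. Ptpn11 passed in neither cell type alone. It was -1.71 for Pilrb1, -4.07 for Cd36, -4.56 for Axl, 2.22 for Stab2 and, next to the cluster, -2.37 for Gprc5c. Dok2, Pilrb1, Stab2 and Gprc5c were near the floor in WT microglia, so for them too this is a description. Outside the members, the differences of Cd300ld3, Vav3, Ptpn22, Inpp5d, Cd36 and Axl passed under every alternative run, and those of the other 8 genes were lost under at least 1.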

How the results depend on the processing

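The members passing the threshold between KO macrophages and KO microglia numbered 2, and 4 with a pseudocount of 10, 5 with limma voom and 4 with only the compared groups in the fit; Cd300lb and Cd300ld2 were among those gained each time. For the difference of the KO effects the number was 3, and 5 with a pseudocount of 10, which added Cd300lb and Cd300ld2. The other counts of members and of signalling genes stayed within 1.5 times under every alternative. Direction changed for Cd300lb between the WT groups (-0.29, from -0.86 to 0.58 over the 12 fits that leave out 1 library), which rest on 9 and 12 reads. For the partners, Tyrobp in KO microglia (-0.04) was 0.0041 with the Ddx3y covariate and ran from -0.10 to 0.0094 with a library left out. The difference of the KO effects of Fcer1g (0.00) was -0.044 with scaling to totals, -0.016 with limma voom and -0.023 with the Ddx3y covariate, and ran from -0.13 to 0.089 with a library left out. That of Pilrb1 (-1.71) was 0.10 with a pseudocount of 10. The cause of these changes was not tested. For Cd300a the difference of the KO effects lost its call without the filter, with scaling to totals, with the Ddx3y covariate and in 9 of 12 fits with a library left out, between 0.33 and 0.61. No paired analysis was possible because the titles carry no replicate numbers. Depth limits Cd300e, Cd300lb and Cd300ld2 in WT cells, where 1 read is worth 0.823 to 1.29 normalized counts. Shares of the summed level moved in 18 of 28 cases without division by length: Cd300c2 was then 60.6% in WT microglia and Cd300a 37.0% in KO microglia. The ratio of activating to inhibitory members also depended on this division, and in macrophages it was then lower in WT than in KO cells.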
